A study of Mus musculus with 9 samples.

Results

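Oxidative phosphorylation is carried out by 5 protein complexes of the inner mitochondrial membrane, and the genes described here encode their nuclear subunits, measured in a mouse liver tumor, in the liver beside it and in wild-type liver. The genes were taken by symbol: those of the Nduf subunits of complex I, Sdha to Sdhd of complex II, the Uqcr genes of complex III, the lettered Cox subunits of complex IV and the Atp5 genes of complex V. Of 18194 genes with a probe set of exactly 1 symbol, 79 were members, with 35 in complex I, 4 in complex II, 8 in complex III, 15 in complex IV and 17 in complex V. A further 7 matching symbols, Ndufa11, Ndufa11b, Ndufb4b, Ndufb4c, Ndufs5-ps, Ndufs6 and Ndufs6b, appeared only in probe sets shared by several symbols and were not used. Ndufa4 and Ndufa4l2 were counted with complex I by their symbols, although the Ndufa4 protein is now placed in complex IV.

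RNA from 9 tissue pieces was measured on 9 Affymetrix arrays that read transcripts near their 3′ ends, with 3 pieces in each of 3 groups. The tumor pieces came from a hepatocellular carcinoma with severe steatosis in a mouse carrying 1 disrupted copy of Sart1, a splicing factor gene (genotype Sart1+/-). The adjacent liver pieces came from the same Sart1+/- mouse and were recorded as cellular alteration with severe steatosis. The wild-type liver pieces came from a wild-type mouse and were recorded as normal with mild steatosis. The mice were male C57Bl6 animals, 12 months old, untreated and fed regular chow. Each group is therefore 3 pieces of tissue from 1 animal: the p-values measure the spread between pieces, and genotype, animal and degree of steatosis cannot be told apart against wild-type liver.

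Electrons from NADH enter the respiratory chain at complex I and those from succinate at complex II. Ubiquinone carries them to complex III and cytochrome c on to complex IV, where oxygen is reduced. The protons pumped by complexes I, III and IV drive ATP synthesis at complex V. Most subunits are encoded in the nucleus and a few core ones in mitochondrial DNA, and hepatocytes are rich in mitochondria. Many promoters of nuclear subunit genes hold sites for the factors NRF1, GABPA, YY1 and estrogen-related receptors, which the coactivator PGC-1α (Ppargc1a) works with.

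The promoter windows of 5 members are given as examples: Ndufa9, Sdhb and Atp5l, which were lower in the tumor than in wild-type liver, and Atp5g2 and Cox7a2l, which were higher. Each is 300 bases from RefSeq (GRCm38.p6), 250 before and 50 after the first listed start, printed 5′ to 3′ on the gene's strand. Capitals mark matches, on either strand, to CCGGAAG (the ETS motif that GABPA binds), GCATGCG (an NRF1 core), AAGATGG (YY1) or AAGGTCA (an estrogen-related receptor core). Ndufa9 lies at chr6:126849095-126849394 on the minus strand, Sdhb at chr4:140961021-140961320 on the plus strand, Atp5l at chr9:44920693-44920992 on the minus strand, Atp5g2 at chr15:102670998-102671297 on the minus strand and Cox7a2l at chr17:83514284-83514583 on the minus strand.
Ndufa9: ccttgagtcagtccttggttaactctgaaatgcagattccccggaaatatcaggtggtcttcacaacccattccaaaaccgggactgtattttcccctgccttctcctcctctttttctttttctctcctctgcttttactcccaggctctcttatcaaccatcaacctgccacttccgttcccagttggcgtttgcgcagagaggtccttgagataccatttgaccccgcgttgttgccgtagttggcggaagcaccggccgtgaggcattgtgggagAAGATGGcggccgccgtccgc
Sdhb: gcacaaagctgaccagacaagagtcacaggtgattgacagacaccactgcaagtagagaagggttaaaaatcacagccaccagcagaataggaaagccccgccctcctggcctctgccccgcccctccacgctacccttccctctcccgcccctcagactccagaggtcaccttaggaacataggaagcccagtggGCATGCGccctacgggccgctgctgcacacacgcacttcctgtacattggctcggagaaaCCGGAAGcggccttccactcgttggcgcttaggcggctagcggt
Atp5l: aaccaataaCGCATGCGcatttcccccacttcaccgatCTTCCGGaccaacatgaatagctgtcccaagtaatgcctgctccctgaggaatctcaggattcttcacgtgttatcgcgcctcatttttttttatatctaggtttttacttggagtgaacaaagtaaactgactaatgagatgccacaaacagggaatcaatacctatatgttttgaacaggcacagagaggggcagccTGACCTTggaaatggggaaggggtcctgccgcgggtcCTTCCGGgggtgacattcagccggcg
Atp5g2: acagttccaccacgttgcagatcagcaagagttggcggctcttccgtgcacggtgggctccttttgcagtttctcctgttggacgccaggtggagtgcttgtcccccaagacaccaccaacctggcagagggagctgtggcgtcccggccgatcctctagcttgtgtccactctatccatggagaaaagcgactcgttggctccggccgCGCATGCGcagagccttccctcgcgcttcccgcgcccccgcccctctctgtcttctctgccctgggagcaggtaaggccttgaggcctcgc
Cox7a2l: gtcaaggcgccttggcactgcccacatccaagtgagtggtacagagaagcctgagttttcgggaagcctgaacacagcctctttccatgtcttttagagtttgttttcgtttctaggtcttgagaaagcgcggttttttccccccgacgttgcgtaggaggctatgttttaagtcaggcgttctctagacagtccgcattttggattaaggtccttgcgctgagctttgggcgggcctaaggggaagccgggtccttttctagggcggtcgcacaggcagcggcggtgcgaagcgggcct
Ndufa9 holds 1 YY1 match, just after its start. Sdhb holds 1 GABPA and 1 NRF1 match, and Atp5l holds 5 matches to 3 of the motifs, of which the 2 NRF1 matches overlap as a core read on both strands. The Atp5g2 window holds the same overlapping NRF1 stretch, and none of the 4 motifs was found in the Cox7a2l window. Windows without any of them also occurred among members lower in tumor, such as Ndufv1, Sdha and Atp5g1.

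Across the 66 members with a promoter in the RefSeq table, the GABPA motif was found in 16 (24.2%), against 9.12% of the 27025 promoters listed. The NRF1 core was found in 9 members (13.6%, against 3.64% of all promoters), the YY1 motif in 9 (13.6%, against 6.48%) and the estrogen-related receptor core in 8 (12.1%, against 4.66%). Among the 47 members that were lower in the tumor than in wild-type liver and had a promoter, 13 held the GABPA motif, 5 the NRF1 core, 7 the YY1 motif and 7 the receptor core. Of the 14 that did not pass that comparison, 3 held the GABPA motif, 3 the NRF1 core, 2 the YY1 motif and 0 the receptor core. Of the 3 higher in tumor with a promoter, 1 held the NRF1 core and 0 the others. These are letter matches in a fixed window and do not show binding.

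Most subunit genes were lower in the tumor than in wild-type liver, by modest amounts. Of the 77 members bright enough to be tested, 53 were lower in tumor, 5 were higher and 19 did not pass (limma, adjusted p under 0.05 over 13888 genes). Differences throughout are log2 differences, those of 2 group means, and a negative one means lower in the group named first. The median member differed by -0.32, against -0.01 for all genes tested. Over all genes tested, 30.2% were lower and 33.2% were higher in that comparison, so a larger share of the members was lower (68.8%) and a smaller share higher (6.49%). Only Ndufa9 passed with a difference of 2-fold or more, whereas 4.59% of all genes were lower by that much and 13% differed by it in either direction. Because 69 of the tested members are bright (mean log2 level of 9 or more), they were also set beside the 3784 tested genes as bright: 51 bright members were lower and 3 higher, with a median of -0.34, against 1348 lower and 1514 higher of the bright genes, with a median of 0.04. The 2 members not tested were Ndufb4 and Cox7b2, whose own probe sets were near the bottom of the scale on all 9 arrays. A further 2, Cox7a1 and Cox6b2, were bright enough only through the groups where they were high, so the filter itself favoured a difference. Their calls stay in the counts and are not read as results.

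In adjacent liver the members were split. Of the 77, 37 were lower than in wild-type liver, 13 were higher and 27 did not pass, with 28.9% of all genes lower and 34% higher in the same comparison. The median member differed by -0.16, against -0.01 for all genes, and none reached 2-fold, against 3.22% of all genes in the downward and 11.5% in either direction. The 13 higher members fell to 8 without wild-type piece 2 or without adjacent piece 3, and to 7 after cyclic loess normalization. Tumor against adjacent liver gave 29 members lower, 10 higher and 38 that did not pass, with a median of -0.10, against -0.01 for all genes. Of all genes, 25.1% were lower and 20.1% higher in tumor than in adjacent liver. Ndufv1 was lower there by more than 2-fold. The 2-fold count there also holds Cox7a1, which was tested only because it was bright in adjacent liver, so its call is not read as a result. Of all genes, 2.94% were lower and 5.04% differed in either direction by 2-fold or more. The comparisons share arrays, so their counts are not independent.

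**Figure D1:**
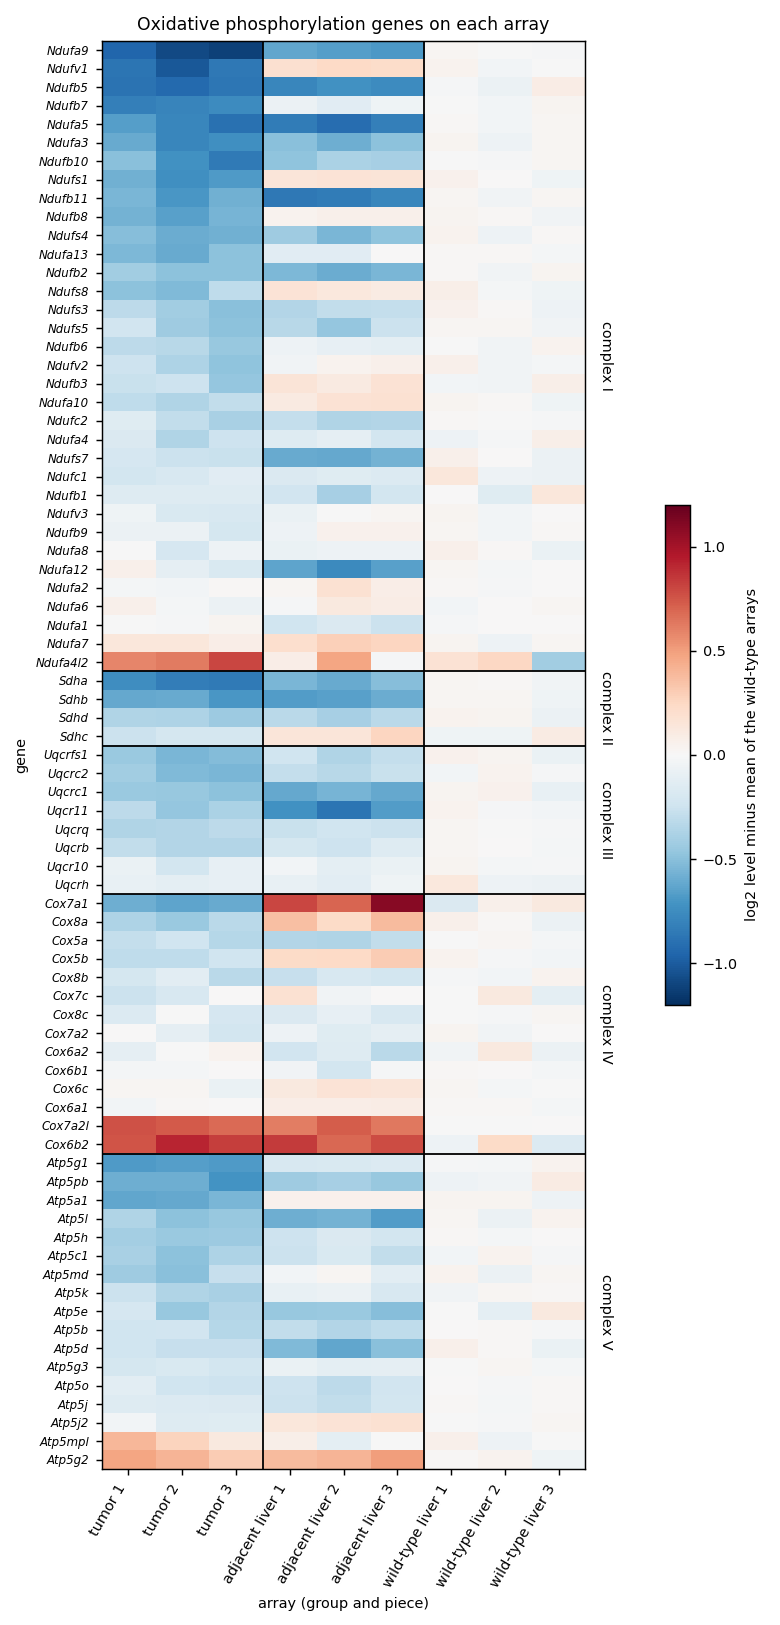
Each row is 1 of the 77 tested members, grouped by complex and sorted by the difference between tumor and wild-type liver, and each column is 1 array. Colour gives the log2 level minus the mean of the 3 wild-type arrays, from -1.2 (dark blue) to 1.2 (dark red). Blue fills most tumor columns in complexes I, II, III and V, from Ndufa9 at the top, while Cox7a2l, Cox6b2 and Atp5g2 are red in both tumor and adjacent liver. Ndufv1 and Cox8a are blue in tumor and red in adjacent liver.

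The shares differed between complexes. In tumor against wild-type liver, 24 of 34 tested members of complex I were lower (median -0.37), as were 4 of 4 of complex II (median -0.52), 6 of 8 of complex III (median -0.36) and 14 of 17 of complex V (median -0.34). In complex IV, 5 of 14 were lower (35.7%) and 2 higher (14.3%), with a median of -0.11. Among all genes tested 30.2% were lower and 33.2% higher, so the share of complex IV that was lower was near that of all genes. Those 14 include tissue-restricted isoforms, and Cox7c as read by a dim probe set (mean level 5.51). The main subunit gene Cox4i1 is not among them. In adjacent against wild-type liver the medians were -0.13, -0.45, -0.27 and -0.21 in complexes I, II, III and V, and 0.07 in complex IV. There 6 members of complex IV were higher (42.9%, against 34% of all genes) and 3 lower (21.4%, against 28.9%). The complex IV values include Cox7a1 and Cox6b2, which were bright enough only through the groups where they were high. Both count as higher in adjacent liver, while in tumor Cox6b2 counts as higher and Cox7a1 as lower. The 42.9% and the median of 0.07 in adjacent liver rest partly on these 2 genes. They are therefore not read as a difference of complex IV from all genes. In tumor against adjacent liver, the medians lay between -0.15 in complex II and 0.01 in complex IV. The difference between complexes was not tested.

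**Figure D2:**
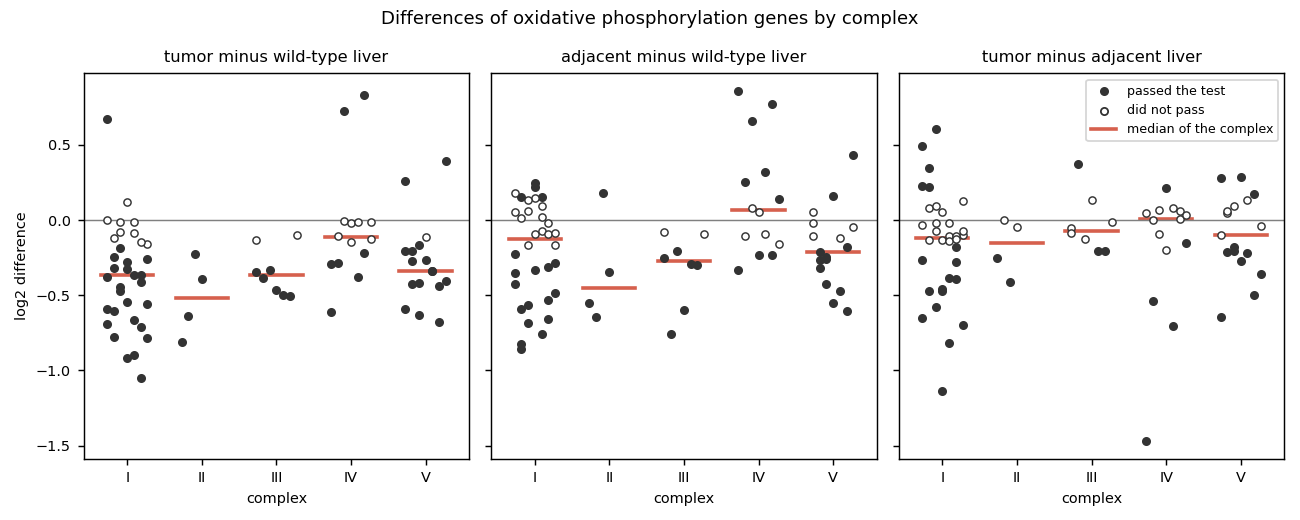
Each point is 1 tested member and the vertical axis gives its log2 difference. The panels show tumor minus wild-type liver, adjacent minus wild-type liver and tumor minus adjacent liver, filled points passed the test, and bars are the medians of each complex. The medians of complexes I, II, III and V lie below 0 in the 3 panels, and that of complex IV is -0.11, 0.07 and 0.01 in turn. The complex IV medians include Cox7a1 and Cox6b2, which were bright enough only through the groups where they were high.

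Several values of the tissue moved with these differences. The marker counts are to be read against all genes tested, of which 30.2% were lower and 33.2% higher in tumor than in wild-type liver. For adjacent liver these shares were 28.9% and 34%. Of 8 hepatocyte markers, 6 were lower and 1 higher in the tumor than in wild-type liver, and 5 were lower in adjacent liver. Their mean log2 level ranged over pieces from 13.19 to 13.26 in tumor, from 13.42 to 13.44 in adjacent liver and from 13.83 to 13.84 in wild-type liver. Albumin itself, at 14.43 to 14.49 in tumor and 14.45 to 14.46 in wild-type liver, did not differ beyond its spread, whereas Tat (tyrosine aminotransferase) differed by -2.55 in tumor. The highest values of any probe set on these arrays spanned the same ranges. Albumin thus lay at the top of the scale, where a difference may not show. Stellate and fibroblast markers were higher in tumor for 5 of 8 and lower for 1, Lrat, which stores retinol as ester (-1.11), and in adjacent liver higher for 5 and lower for 2 (Lrat at -1.02), with mean levels of 8.97 to 9.46 in tumor, 9.17 to 9.50 in adjacent liver and 7.93 to 8.43 in wild-type liver. Neutrophil markers were higher in tumor for 2 of 3 (7.90 to 8.01 in tumor, 7.62 to 7.82 in adjacent liver, 5.87 to 6.20 in wild-type liver) and B cell markers for 4 of 4 (7.18 to 7.47 in tumor, 6.23 to 6.52 in adjacent liver, 5.99 to 6.19 in wild-type liver). Macrophage markers were higher for 4 of 8 and lower for 2 in both Sart1+/- tissues, with mean levels of 8.96 to 9.26 in tumor, 8.58 to 9.10 in adjacent liver and 9.21 to 9.31 in wild-type liver. These means hide a wide split. Against wild-type liver the markers ran from -4.87 (Cd163) to 1.40 (Cd68) in tumor, with a median of 0.52. In adjacent liver they ran from -4.98 (Cd163) to 1.40 (Lyz2), with a median of 0.34. The 3′ minus 5′ signal of Actb, a measure of RNA integrity, was 0.59 ± 0.09 in tumor, 0.85 ± 0.05 in adjacent liver and 0.86 ± 0.02 in wild-type liver (SD, n = 3), while the Gapdh value was 0.21 ± 0.01 in tumor, 0.16 ± 0.02 in adjacent liver and 0.27 ± 0.02 in wild-type liver (SD, n = 3). The part of cell makeup and RNA integrity in the members' differences was not tested, and in pieces of tissue fewer cells of a type cannot be told apart from less RNA per cell. Within groups, arrays correlated at 0.9963 to 0.9981, and array medians lay between 5.76 and 5.81.

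The disrupted gene, Sart1, had log2 levels of 7.77, 7.71 and 7.75 in tumor, 8.34, 8.39 and 8.38 in adjacent liver and 8.35, 8.32 and 8.36 in wild-type liver. It was lower in the tumor than in wild-type liver (-0.60, adjusted p = 2.61e-06), and in adjacent liver it differed by 0.03 from wild-type liver (adjusted p = 0.678). The sources used here do not state which part of the gene is disrupted, so this probe set may not be able to check the genotype label of the adjacent liver.

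In complex I, the core subunits that bind flavin and iron-sulfur clusters or line the ubiquinone site were lower in tumor as a group. The 6 nuclear core genes measured, Ndufv1, Ndufv2, Ndufs1, Ndufs3, Ndufs7 and Ndufs8, were each lower than in wild-type liver, with a median of -0.43 and a range from -0.92 to -0.24. In adjacent liver 2 of the 6 were higher and 2 lower. Ndufv1, the flavin-bearing subunit that accepts electrons from NADH, stood at log2 levels of 11.00, 10.86 and 11.02 in tumor, 12.07, 12.12 and 12.10 in adjacent liver and 11.92, 11.84 and 11.87 in wild-type liver. Tumor lay below both other groups, with no overlap. The difference was -0.92 against wild-type liver (SE 0.06, adjusted p = 3.3e-07) and -1.14 against adjacent liver (SE 0.06, adjusted p = 2.68e-07). Adjacent liver was 0.22 above wild-type liver (adjusted p = 0.0097), a call that was lost after cyclic loess normalization (0.14, adjusted p = 0.0598). Its other probe sets gave -0.96 and -0.75 for tumor against wild-type liver.

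Ndufs1, the large iron-sulfur subunit of the NADH-oxidising end, was also lowest in tumor: 10.24, 10.08 and 10.13 in tumor, 10.96, 10.98 and 10.97 in adjacent liver and 10.87, 10.82 and 10.76 in wild-type liver. Tumor differed by -0.67 from wild-type liver (adjusted p = 3.54e-06) and by -0.82 from adjacent liver (adjusted p = 2.1e-06). Its rise of 0.15 in adjacent liver against wild-type liver passed at an adjusted p of 0.0446 and was lost when any 1 of the adjacent or wild-type pieces was left out, at differences of 0.13 to 0.18 and adjusted p of 0.0508 to 0.127. Ndufs8, another iron-sulfur subunit, was lower in tumor, at -0.44 against wild-type liver and -0.58 against adjacent liver. Ndufv2, which holds an iron-sulfur cluster beside Ndufv1, was lower at -0.36 and -0.39 in the same comparisons. Ndufs7, which passes electrons to ubiquinone, went the other way between the 2 Sart1+/- tissues, at -0.24 in tumor and -0.59 in adjacent liver against wild-type liver, and 0.35 higher in tumor than in adjacent liver (adjusted p = 0.000522). Ndufs3 was lower in both, at -0.41 in tumor and -0.31 in adjacent liver.

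The accessory subunits of complex I, which surround the core, held the member with the largest difference between tumor and wild-type liver. Ndufa9, which sits by the ubiquinone site and whose promoter is printed above, had log2 levels of 10.39, 10.26 and 10.22 in tumor, 10.72, 10.68 and 10.66 in adjacent liver and 11.37, 11.34 and 11.32 in wild-type liver. The 3 groups were apart from each other in that order. Tumor was at 0.483 of the wild-type level (log2 -1.05, SE 0.06, adjusted p = 1.14e-07), and adjacent liver at 0.634 of it (log2 -0.66, adjusted p = 4.79e-06). Ndufb5, a membrane-arm subunit, stood at 10.88, 10.83 and 10.89 in tumor, 10.98, 11.04 and 11.00 in adjacent liver and 11.75, 11.69 and 11.85 in wild-type liver. Both Sart1+/- tissues were thus low, at -0.90 in tumor and -0.76 in adjacent liver, and their own difference of -0.14 did not pass (adjusted p = 0.0816). Ndufa5 (-0.78 in tumor, -0.86 in adjacent liver) and Ndufb11 (-0.61 and -0.83) were likewise low in both. Ndufb7, by contrast, was lower in tumor (-0.79, adjusted p = 4.66e-07) and differed by -0.09 in adjacent liver (adjusted p = 0.185), where a second probe set of the gene was lower at -0.18 (adjusted p = 0.0402).

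Of the 26 tested accessory subunits, 17 were lower and 0 higher in the tumor than in wild-type liver, and 9 did not pass. The membrane-arm Ndufb and Ndufc genes gave 10 lower of 12, with a median of -0.42. Those that did not pass included Ndufa1 (0.00), Ndufa2 (-0.01) and Ndufa6 (-0.01). Ndufa12, a subunit of the arm that reaches into the matrix, was lowest in adjacent liver: 11.77, 11.60 and 11.53 in tumor, 11.07, 10.95 and 11.06 in adjacent liver and 11.73, 11.68 and 11.71 in wild-type liver. It was 0.60 higher in tumor than in adjacent liver (adjusted p = 5.82e-05), and the adjacent difference from wild-type liver was -0.68 (adjusted p = 1.25e-05). Ndufa4l2, a relative of Ndufa4 that is known as a target of hypoxia-inducible factors and a dampener of complex I activity, was the only complex I symbol that was higher in the tumor than in wild-type liver. Its levels were 7.49, 7.53 and 7.70 in tumor, 6.98, 7.37 and 6.89 in adjacent liver and 7.08, 7.15 and 6.48 in wild-type liver, a difference of 0.67 (SE 0.17, adjusted p = 0.00623). Ndufa4 itself was lower in tumor at -0.26 (adjusted p = 0.00624).

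**Figure D3:**
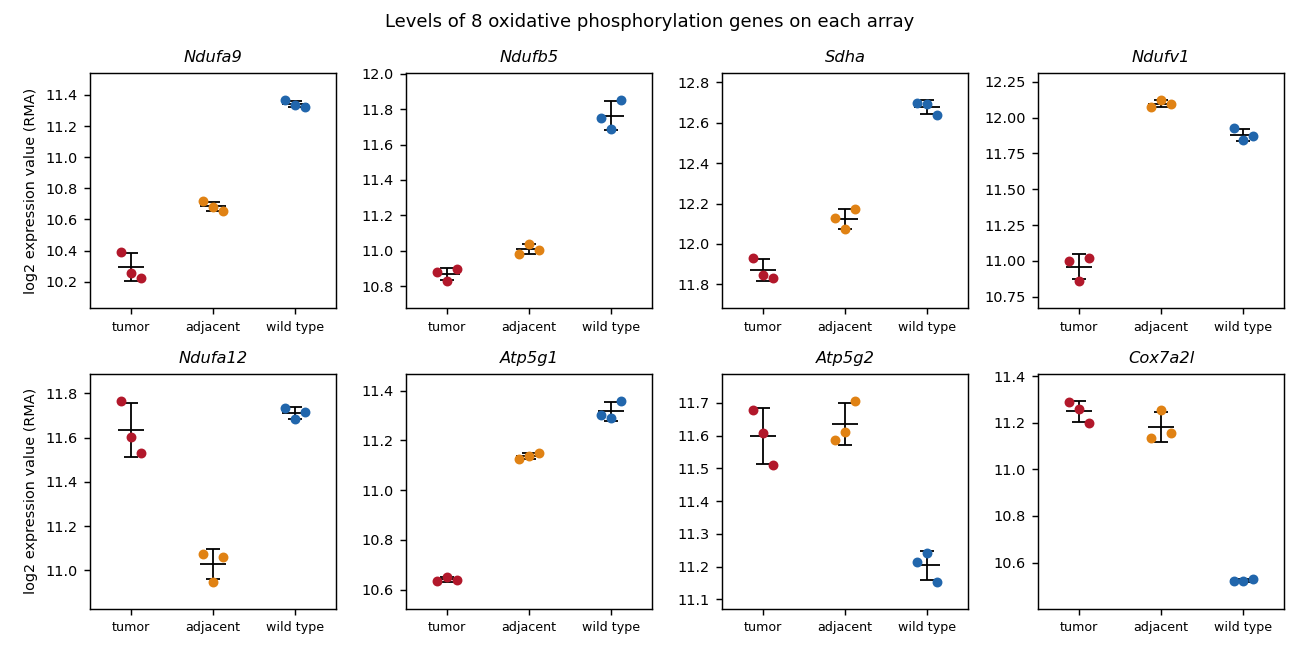
Each panel is 1 gene, points are log2 expression values of the 3 pieces per group, and the black bar and whiskers give the mean and SD (n = 3). The vertical axes do not start at 0 and differ between panels. Tumor lies lowest for Ndufa9, Ndufb5, Sdha, Ndufv1 and Atp5g1, adjacent liver lies lowest for Ndufa12, and wild-type liver lies lowest for Atp5g2 and Cox7a2l.

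Complex II, succinate dehydrogenase, was lower in tumor throughout. Sdha, the flavoprotein that oxidises succinate, had log2 levels of 11.93, 11.85 and 11.83 in tumor, 12.13, 12.07 and 12.17 in adjacent liver and 12.70, 12.70 and 12.64 in wild-type liver. The groups did not overlap, and tumor was at 0.571 of the wild-type level (log2 -0.81, SE 0.06, adjusted p = 5.34e-07) and adjacent liver at 0.681 (log2 -0.55). Sdhb, the iron-sulfur subunit, was low in both, at -0.64 in tumor and -0.64 in adjacent liver, with a difference of 0.00 between them. Sdhd, a membrane anchor, was lower at -0.39 in tumor and -0.35 in adjacent liver. Sdhc, the other anchor, was lower in tumor at -0.23 (adjusted p = 0.00943) and 0.18 higher in adjacent liver (adjusted p = 0.0274). The call in adjacent liver was lost without adjacent piece 3 (0.14, adjusted p = 0.101) and without wild-type piece 1 or 2 (0.16 each, adjusted p = 0.093 and 0.0947), and the fall in tumor was lost on averaging the gene's probe sets (-0.15, adjusted p = 0.0611).

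In complex III, 6 of 8 genes were lower in tumor and 6 of 8 in adjacent liver than in wild-type liver. Uqcrfs1, the gene of the Rieske iron-sulfur protein, stood at 11.65, 11.55 and 11.58 in tumor, 11.86, 11.73 and 11.80 in adjacent liver and 12.14, 12.13 and 12.01 in wild-type liver. Its difference from wild-type liver was -0.50 in tumor (adjusted p = 4.63e-05) and -0.30 in adjacent liver (adjusted p = 0.00206). Uqcrc2, a core subunit, was also lower at -0.50 in tumor. Uqcrc1, its partner, was lower at -0.46 in tumor and -0.60 in adjacent liver. The gene of the small subunit Uqcr11 stood at 11.75, 11.61 and 11.69 in tumor, 11.35, 11.19 and 11.39 in adjacent liver, the lowest group, and 12.11, 12.06 and 12.03 in wild-type liver, and its difference of 0.37 between tumor and adjacent liver passed (adjusted p = 0.00124). Uqcr10 and Uqcrh, at -0.13 and -0.10 in tumor, did not pass.

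Complex IV, cytochrome c oxidase, showed no common direction. Its main liver subunits included Cox5a, lower at -0.29 in tumor and -0.33 in adjacent liver, and Cox6a1, Cox6b1, Cox6c and Cox7a2, which differed by -0.11 to -0.01 in tumor and did not pass in the probe sets used. A second bright probe set of Cox7a2, at a mean level of 11.72, was lower at -0.34 in tumor (adjusted p = 0.0023) and -0.36 in adjacent liver (adjusted p = 0.00163), and one of Cox6a1 was lower at -0.17 in tumor (adjusted p = 0.0484). For these genes the call depends on the probe set. Cox8a, a small membrane subunit, had log2 levels of 11.92, 11.84 and 11.97 in tumor, 12.64, 12.52 and 12.67 in adjacent liver and 12.35, 12.30 and 12.21 in wild-type liver. It was thus lowest in tumor and highest in adjacent liver, at -0.38 (adjusted p = 0.000501) and 0.32 (adjusted p = 0.00161) against wild-type liver. The rise in adjacent liver was lost on averaging its probe sets (0.14, adjusted p = 0.054). Cox5b followed the same order in its brightest probe set, at -0.28 in tumor and 0.26 in adjacent liver. A dim Cox5b probe set, at a mean level of 5.06, gave 2.06 for tumor against wild-type liver, so the direction for this gene depends on the probe set.

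Cox7a2l was the bright member of complex IV that was higher in tumor. It encodes a factor that joins complexes III and IV into supercomplexes, and it is known that C57BL/6 mice carry a shortened form. Its log2 levels were 11.29, 11.26 and 11.20 in tumor, 11.14, 11.25 and 11.16 in adjacent liver and 10.52, 10.52 and 10.53 in wild-type liver. Both Sart1+/- tissues lay above every wild-type piece, at 1.65 times the wild-type level in tumor (log2 0.73, SE 0.06, adjusted p = 1.17e-06) and 1.58 times in adjacent liver (log2 0.66, adjusted p = 2.9e-06). Its other probe sets gave 0.70 and 0.68 in tumor. Its promoter, printed above, held none of the motifs searched, and neither did those of Ndufv1, Sdha and Atp5g1, which were lower in tumor.

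The tissue-restricted isoforms of complex IV ranged from the bottom of the scale to its middle, and the 40th percentile of the arrays, the limit for testing, lay at 5.16 to 5.26. Cox7a1, the heart and muscle counterpart of Cox7a2, stood at 4.57, 4.52 and 4.54 in tumor, 5.95, 5.85 and 6.24 in adjacent liver and 4.98, 5.21 and 5.26 in wild-type liver. The adjacent pieces were the highest, and the means of tumor and wild-type liver lay below that limit, so no size or p is given for its differences. Cox6b2, the testis counterpart of Cox6b1, stood at 5.79, 5.95 and 5.86 in tumor, 5.87, 5.73 and 5.81 in adjacent liver and 4.97, 5.26 and 4.87 in wild-type liver. Both Sart1+/- tissues lay above the wild-type pieces, whose mean was below the limit, and again no size is given. The heart and muscle isoform Cox6a2 was brighter, at 7.13, 7.23 and 7.28 in tumor, 6.91 to 7.08 in adjacent liver and 7.19, 7.35 and 7.16 in wild-type liver. It was lower in adjacent than in wild-type liver (-0.23, adjusted p = 0.0181), a call that was lost without adjacent piece 3 (-0.19, adjusted p = 0.0718) and without wild-type piece 2 (-0.18, adjusted p = 0.0786). Cox8c, the testis counterpart of Cox8a, averaged 8.30 in tumor, 8.27 in adjacent liver and 8.42 in wild-type liver, and no comparison of it passed. The muscle isoform Cox8b was lower in tumor at -0.22 (adjusted p = 0.0129), a call that was lost after cyclic loess normalization (-0.14, adjusted p = 0.0722). Of 6 striated muscle markers, 2 were bright enough to be tested, and 0 passed in tumor against wild-type or adjacent liver. In adjacent against wild-type liver 1 passed, myoglobin (Mb), which was lower at -0.27 (adjusted p = 0.0476). That call was lost without any 1 wild-type piece, adjacent piece 1 or 3 or tumor piece 1 (-0.30 to -0.19, adjusted p = 0.0624 to 0.176).

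In complex V, ATP synthase, the catalytic part was lower in tumor: Atp5a1, Atp5b, Atp5c1, Atp5d and Atp5e, which encode its 5 subunits, were each lower than in wild-type liver, at -0.59 to -0.26. Atp5a1 (subunit α) stood at 12.66, 12.67 and 12.73 in tumor, 13.33, 13.33 and 13.34 in adjacent liver and 13.31, 13.31 and 13.22 in wild-type liver. Tumor was apart from both others, at -0.59 against wild-type liver (adjusted p = 4.49e-06) and -0.65 against adjacent liver (adjusted p = 5.81e-06). Atp5b (subunit β), in contrast, was low in both tissues, at -0.27 in tumor and -0.32 in adjacent liver. Atp5d was at -0.26 in tumor and -0.55 in adjacent liver, and the 2 tissues differed by 0.29 (adjusted p = 0.00252).

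The 3 genes for subunit c, which encode the same mature protein and form the rotor ring, moved in different directions. Atp5g1 had log2 levels of 10.63, 10.65 and 10.64 in tumor, 11.12, 11.14 and 11.15 in adjacent liver and 11.30, 11.29 and 11.36 in wild-type liver. It was lower in tumor, at -0.68 (SE 0.05, adjusted p = 9.47e-07) and in adjacent liver, at -0.18 (adjusted p = 0.0109). Atp5g2 was higher in both tissues: 11.68, 11.61 and 11.51 in tumor, 11.59, 11.61 and 11.71 in adjacent liver and 11.21, 11.24 and 11.15 in wild-type liver, at 0.40 (SE 0.06, adjusted p = 0.000316) and 0.43 (adjusted p = 0.000181). Atp5g3 was lower in tumor at -0.20 (adjusted p = 0.00504), and its -0.10 in adjacent liver did not pass. Their summed transcript cannot be read from array values of different probe sets.

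Among the other complex V genes, 7 of 9 were lower in tumor. Atp5pb, the stalk subunit b, was lower at -0.63 in tumor and -0.43 in adjacent liver. Atp5l, a membrane subunit whose promoter is printed above, was lower at -0.43 in tumor and -0.61 in adjacent liver. Atp5mpl, a small subunit of the membrane part, was the last of the 5 members that were higher in the tumor than in wild-type liver, at 11.14, 11.00 and 10.86 in tumor and 10.80, 10.68 and 10.73 in wild-type liver (0.26, adjusted p = 0.0163). That call was lost without tumor piece 1 (0.19, adjusted p = 0.0637) and without wild-type piece 2 (0.23, adjusted p = 0.0591).

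The values of further members are given side by side for comparisons that share arrays. Ndufa3 and Ndufb10, both accessory subunits of the membrane arm, were lower in tumor (-0.71 and -0.69) and in adjacent liver (-0.53 and -0.42) than in wild-type liver. Ndufb8, another membrane-arm subunit, differed by -0.59 in tumor and 0.06 in adjacent liver, of which the second did not pass. Ndufa13, also known as a cell death regulator, was lower in tumor at -0.55 and did not pass in adjacent liver at -0.09. Atp5md, a small subunit linked to pairing of ATP synthases, showed the same at -0.40 in tumor and -0.04 in adjacent liver. The stalk subunit gene Atp5h was lower at -0.43 in tumor and -0.21 in adjacent liver. Ndufa10, an accessory subunit, was lower in tumor at -0.32 and higher in adjacent liver at 0.15. That rise was lost without adjacent piece 2 or 3 or wild-type piece 2 or 3 (0.13 to 0.16, adjusted p = 0.0653 to 0.0981).

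The members' differences ran alongside those of other genes on the same chromosome. The RefSeq table gave a chromosome for the 79 members and for 18033 of the 18194 genes. For each tested member, its difference was set against the median difference of the other tested genes on its chromosome. Across the 77 members the Pearson correlation was 0.73 (Spearman 0.77) in tumor against adjacent liver, 0.60 (0.66) in adjacent against wild-type liver and 0.48 (0.48) in tumor against wild-type liver. These are descriptions across genes measured on the same 9 arrays, not across independent samples, and members of 1 chromosome share 1 median. The median of a member minus its chromosome was -0.35 in tumor against wild-type liver, where 68 of 77 members lay below their chromosome's median. It was -0.17 in adjacent against wild-type liver (66 of 77 below) and -0.09 in tumor against adjacent liver (55 of 77 below).

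Chromosomes 1, 8, 10 and 19, picked after the values were seen, serve as examples. On chromosome 10, 5 of 6 members were higher in tumor than in adjacent liver and 0 were lower, and among its 666 tested genes 52% were higher and 4.95% lower. Those members were Atp5b, Atp5d, Ndufa12, Ndufa4l2, Ndufs7 and Uqcr11, of which Atp5b at 0.05 did not pass. The Ndufa4l2 call was lost when any 1 tumor piece, adjacent piece 1 or adjacent piece 3 was left out, at differences of 0.39 to 0.53 and adjusted p of 0.0653 to 0.141. On chromosome 19, Atp5md, Cox8a, Ndufb8, Ndufs8 and Ndufv1 were each lower in tumor than in adjacent liver, as were 61.4% of the 505 tested genes. Sart1 also lies on chromosome 19 and was lower at -0.63 (adjusted p = 4.89e-06). On chromosome 1, Cox5b, Ndufa10, Ndufb3, Ndufs1 and Sdhc were each lower, as were 42.2% of 796 tested genes, and on chromosome 8, Ndufa13 and Ndufb7 were lower, as were 61.3% of 734.

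Adjacent liver against wild-type liver showed the converse on chromosomes 1, 10 and 19. On chromosome 10, 5 of 6 members and 47.6% of tested genes were lower, and on chromosome 8, 0 of 2 members passed. Upward shifts were not particular to chromosomes 1 and 19. On chromosomes 5, 15, 17 and 18, 45.3%, 50.2%, 51.1% and 54.8% of tested genes were higher. Of the 10 members on chromosomes 1 and 19, 6 were higher and 0 lower, with a median of 0.15. Of all 1301 tested genes of these 2 chromosomes, 715 were higher and 214 lower, with a median of 0.28. The 67 tested members on other chromosomes gave 7 higher and 37 lower, with a median of -0.22, against 4002 higher and 3778 lower of the 12513 tested genes there, with a median of -0.02. In tumor against wild-type liver, the 10 members of chromosomes 1 and 19 were lower in 10 of 10, with a median of -0.39, while of all tested genes there 443 were higher and 407 lower, with a median of -0.01. The source of the chromosome-wide shifts was not tested.

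**Figure D4:**
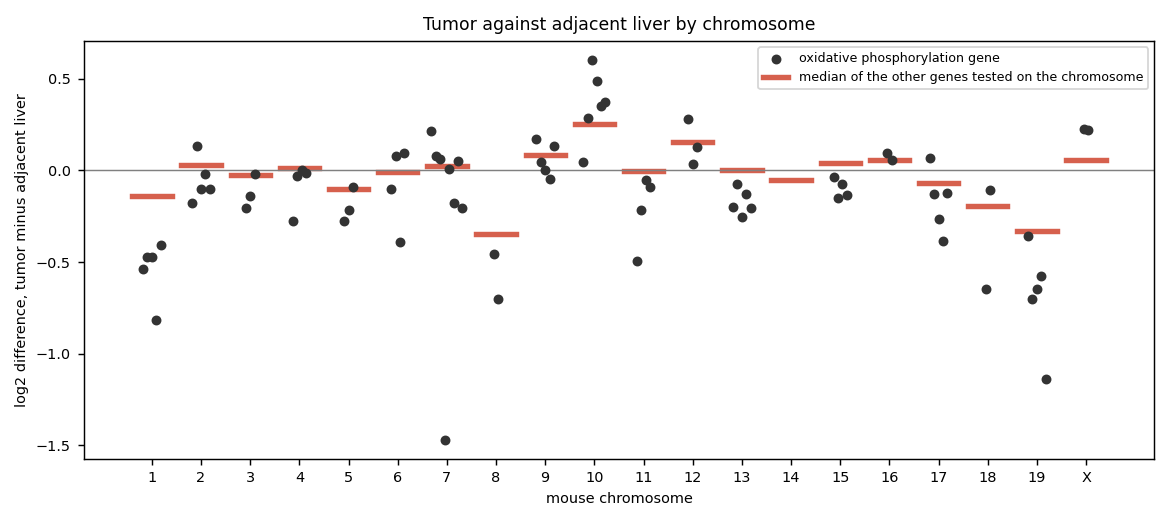
Points are the 77 tested members placed by chromosome, and the vertical axis gives the log2 difference of tumor minus adjacent liver. Red bars are the median of the other tested genes of each chromosome, from -0.35 on chromosome 8 to 0.25 on chromosome 10. The members lie high on chromosome 10 and low on chromosomes 1, 8 and 19, and the lowest point is Cox7a1 on chromosome 7, whose level in tumor was below the limit for testing.

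Subunit genes that the symbol rule does not take were read from a list. Cox4i1, the main form of a core-contacting subunit of complex IV, was lower in the tumor than in wild-type liver (-0.58, adjusted p = 5.21e-06) and differed by -0.08 in adjacent liver (adjusted p = 0.216). Its lung isoform Cox4i2 was dim and differed by -0.06 in tumor (adjusted p = 0.603). Ndufab1, the acyl carrier protein of complex I, was lower at -0.48 in tumor and -0.33 in adjacent liver. Cytochrome c1, Cyc1, was lower in tumor at -0.26 (adjusted p = 0.0212), and lost that call without tumor piece 3 (-0.15, adjusted p = 0.0507) or without wild-type piece 1 or 2 (-0.24 each, adjusted p = 0.0627 and 0.063). Of the mitochondrially encoded subunits, the list found ND5, lower in tumor at -0.21 (adjusted p = 0.00916) and at 0.03 in adjacent liver. Atpif1, the inhibitor that stops ATP synthase from running in reverse, stood out: its log2 levels were 10.56, 10.25 and 10.05 in tumor, 10.43, 10.08 and 10.35 in adjacent liver and 8.10, 8.01 and 8.26 in wild-type liver. Both Sart1+/- tissues lay above every wild-type piece, by 2.17 in tumor (adjusted p = 1.82e-07) and 2.16 in adjacent liver (adjusted p = 2.35e-07).

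Factors that assemble the complexes were counted by complex. The shares of all genes to read these counts and those of the lists that follow against are 30.2% lower and 33.2% higher in tumor, and 28.9% lower and 34% higher in adjacent liver, each against wild-type liver. Of 15 complex I assembly genes, 14 were lower and 0 higher in the tumor than in wild-type liver, and 10 were lower and 3 higher in adjacent liver. Ecsit was the furthest, at 7.94, 7.93 and 7.88 in tumor, 7.78, 7.81 and 7.83 in adjacent liver and 9.10, 9.01 and 9.05 in wild-type liver (-1.14 and -1.25). Acad9 was lower in tumor, at 0.498 of the adjacent level (adjusted p = 4.18e-07) and 0.581 of the wild-type level (adjusted p = 7.01e-07). For complex II, 2 of 4 were lower in tumor, and in adjacent liver 3 were higher, led by Sdhaf4 (0.74), and 1, Sdhaf3, lower (-0.30). For complex III, 4 of 5 were lower and 1 higher in tumor, and 3 were higher and 1 lower in adjacent liver. For complex IV, 9 of 20 were lower (45%) and 4 higher (20%) in tumor, and 6 were lower (30%) and 7 higher (35%) in adjacent liver, the last 2 shares near those of all genes. Cox17, the copper chaperone, was higher by 0.88 in tumor and 1.02 in adjacent liver, and Cox15, an enzyme of heme A synthesis, differed by -0.07 in tumor (adjusted p = 0.367) and was higher in adjacent liver (1.03, adjusted p = 3.1e-07). Of 3 ATP synthase assembly genes, 1 was lower in tumor and 2 were higher in adjacent liver.

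The genes that feed and carry electrons were mostly lower. Of 16 genes for electron carriers and coenzyme Q synthesis, 10 were lower and 1 higher in tumor, and 10 were lower and 2 higher in adjacent liver. Etfdh, which passes electrons from fatty acid oxidation to ubiquinone, stood at 10.21, 9.94 and 10.06 in tumor, 10.89, 10.73 and 10.89 in adjacent liver and 11.68, 11.69 and 11.66 in wild-type liver. Its difference was -1.61 in tumor (adjusted p = 2.91e-08) and -0.84 in adjacent liver (adjusted p = 4.48e-06) against wild-type liver. The coenzyme Q genes Coq10a (-1.50 in tumor, -1.24 in adjacent liver) and Coq9 (-1.06 in tumor) were lower too, while Coq10b was higher (0.62 in tumor, 0.67 in adjacent liver). Of 15 pyruvate dehydrogenase and citric acid cycle genes, 14 were lower in tumor, led by Dlat (-1.24), and Mdh2 was higher (0.38). In adjacent liver 10 of them were lower and 1 higher.

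Of 12 regulators of mitochondrial biogenesis, 5 were lower (41.7%, against 30.2% of all genes) and 2 higher (16.7%, against 33.2%) in tumor. In adjacent liver 5 were lower (41.7%, against 28.9%) and 3 higher (25%, against 34%). Ppargc1a was lower in both, at 5.48, 5.49 and 5.44 in tumor, 5.65, 5.58 and 5.54 in adjacent liver and 6.72, 6.89 and 6.64 in wild-type liver (-1.28 and -1.16). Its relative Pprc1 was higher, by 1.10 in tumor and 1.63 in adjacent liver. Nrf1, Gabpa and Esrra, which encode factors for the motifs counted above, differed by 0.09, -0.02 and -0.04 in tumor and did not pass in their main probe sets, although the most variable Gabpa probe set gave 0.20 (adjusted p = 0.0155). Yy1 was higher in tumor by 0.21 (adjusted p = 0.0378), a call that was lost when any 1 tumor or wild-type piece was left out, at differences of 0.19 to 0.23 and adjusted p of 0.0533 to 0.098. Tfam, needed for mitochondrial DNA transcription, was lower in tumor at -0.21 (adjusted p = 0.0354). That call was lost without tumor piece 2 or 3 or any wild-type piece (-0.22 to -0.15, adjusted p = 0.0685 to 0.124), and other probe sets turned its direction (0.28 for the most variable one). Hif1a and Epas1, the hypoxia-inducible factor genes, were higher in tumor by 0.66 and 0.43 and in adjacent liver by 0.43 and 0.40.

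Carriers of the inner membrane and pores of the outer one gave 4 lower and 2 higher of 9 in tumor, and 3 lower and 3 higher in adjacent liver. Slc25a4, the heart and muscle form of the ADP/ATP carrier, stood at 8.26, 8.40 and 8.53 in tumor, 11.47, 11.44 and 11.47 in adjacent liver and 7.39, 7.48 and 7.21 in wild-type liver. Tumor was 1.04 above wild-type liver (adjusted p = 1.87e-06) and adjacent liver was 4.10 above it (adjusted p = 1.81e-10). Slc25a5, the widely expressed form, differed by 0.12 in tumor (adjusted p = 0.0613) and by -0.02 in adjacent liver (adjusted p = 0.771). Slc25a13, the aspartate/glutamate carrier of liver, was lower at -0.99 in tumor and -1.55 in adjacent liver.

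**Figure D5:**
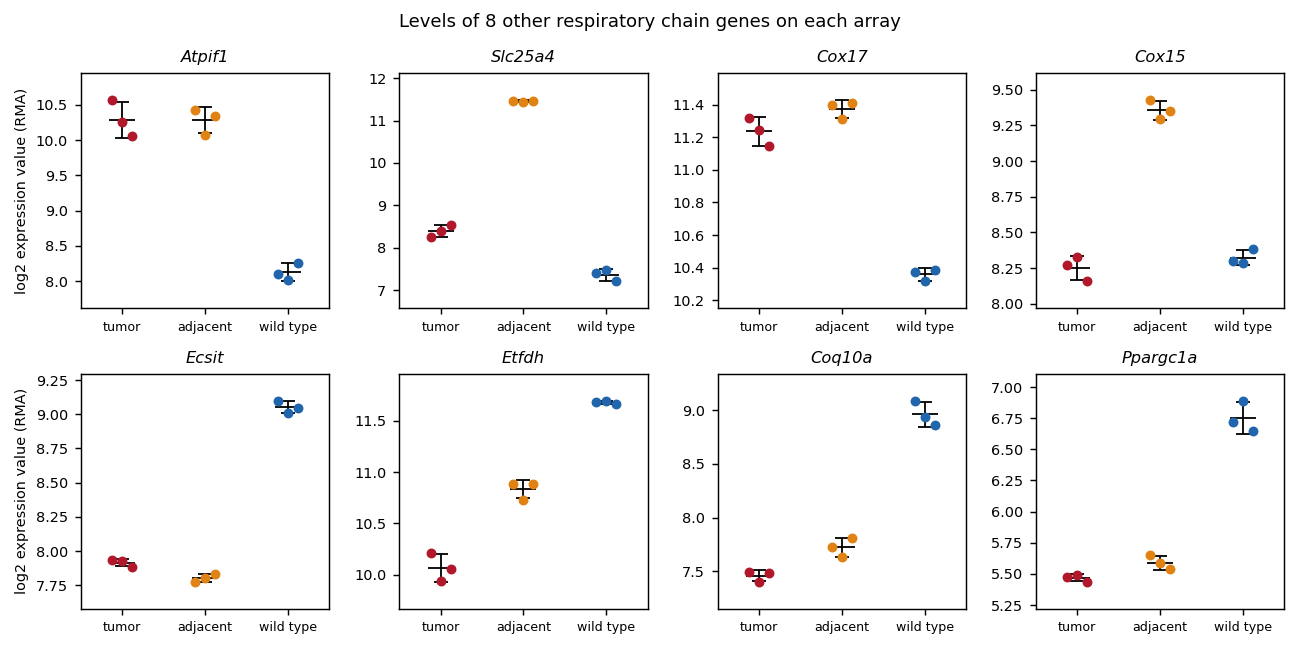
Each panel is 1 gene, points are log2 expression values of the 3 pieces per group, and the black bar and whiskers give the mean and SD (n = 3). The vertical axes do not start at 0 and differ between panels. Atpif1 and Cox17 are high in tumor and adjacent liver, Slc25a4 and Cox15 are highest in adjacent liver, and Ecsit, Etfdh, Coq10a and Ppargc1a are highest in wild-type liver.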

How the data were processed

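The deposited values are log2 expression per probe set on a 3′ expression array. Per the submitters' processing notes, the authors used Expression Console 1.3.1.187, from Affymetrix, and RMA. RMA equalises the arrays' distributions, so a shift of most genes would not show. Probe sets were named by the platform annotation: 34958 of 45101 had 1 symbol, 932 several and 9211 none. Each gene was represented by its probe set with exactly 1 symbol and the highest mean. A gene was tested when above an array's 40th percentile on at least 3 of 9 arrays, which left 13888 genes. Of the members' probe sets, 10 carried the suffix _s_at and 6 _x_at, which may read related transcripts or pseudogenes. For members that passed in tumor against wild-type liver, 49 of 55 other probe sets passed the same way, 5 did not pass and 1 (Cox5b) was opposite. For members that did not pass there, 5 of 18 other probe sets were lower (of Atp5j2, Cox6a1, Cox7a2, Ndufa12 and Ndufb9) and 0 higher. Other probe sets were adjusted in a fit of their own.

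Groups were compared in limma 3.58.1 (R 4.3.3) by a model of group means over the 9 arrays (6 residual degrees of freedom), with Benjamini-Hochberg adjustment across the genes tested. A gene passed at an adjusted p under 0.05, and 2-fold means a log2 difference of at least 1 in size. On simulated data with 13888 genes, changes of 0.5 were recovered at 76% in tumor against wild-type liver, 72% in adjacent against wild-type liver and 74% in tumor against adjacent liver, and changes of 1 at 100%, 100% and 96%. In that simulation 50 genes changed at each size and 13688 did not. In the data, 4606 genes were higher and 4193 lower in tumor against wild-type liver, so these rates do not describe recovery here. With 3 arrays in a group, precision is limited by their number. The sources used here give no scan batch, and no 2 arrays held identical values.

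Named genes were members at 2-fold, the 3 largest passing increases and decreases per complex whose groups did not overlap, redox-centre and catalytic subunits, isoform families, the pathway genes of smallest adjusted p and a few fixed regulators. The other genes named, such as those picked by chromosome, further complex I and V members and Yy1, were chosen after their values were seen. Members, lists and rules were chosen with earlier results of these data known. Alternatives changed the filter, the probe set per gene, the normalization, the model and the pieces included. Promoters are RefSeq's (GRCm38.p6), matched by Entrez gene identifier for 66 of 79 members.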

Additional observations from a re-analysis of the deposited data

How the results depend on the processing

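In each comparison, under every alternative run, the count of members lower stayed within 1.5 times the reported one and the members' median stayed below 0. With an adjusted p under 0.01, the members higher were 8 in adjacent against wild-type liver (13 in the report) and 5 in tumor against adjacent liver (10). A filter at the 60th percentile left 1 member at 2-fold in tumor against adjacent liver (2), since dim genes were no longer tested. The mean of a gene's probe sets gave 8 members higher and a median of -0.19 in adjacent against wild-type liver. The most variable probe set gave 5 members at 2-fold (1) and a median of -0.38 in tumor against wild-type liver, and 1 (0) and -0.23 in adjacent against wild-type liver. Cyclic loess gave a median of -0.40 in tumor against wild-type liver, and 7 members higher and a median of -0.21 in adjacent against wild-type liver, and the cause was not tested. Leaving out 1 piece in turn gave 51 to 54 members lower and 4 to 5 higher in tumor against wild-type liver (median -0.35 to -0.30), 36 to 39 lower and 8 to 14 higher in adjacent against wild-type liver (median -0.18 to -0.14), and 23 to 28 lower and 7 to 9 higher in tumor against adjacent liver (median -0.11 to -0.09).

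Directions turned where another probe set was read. The mean of the probe sets gave 0.0934 for Cox5b and 0.0348 for Tfam in tumor against wild-type liver, and -0.0086 for Acad9 in adjacent against wild-type liver. The most variable probe set gave 2.06 for Cox5b, 0.28 for Tfam and 0.20 for Gabpa in tumor against wild-type liver, -0.0613 for Cox6c in adjacent against wild-type liver, and 0.83 for Cox5b, 0.48 for Ppargc1a, 0.89 for Lrat and 0.27 for Uqcr10 in tumor against adjacent liver. In deviations from their group means, same-numbered pieces correlated at -0.11 to 0.14 and differently numbered ones at -0.17 to 0.15. Deviations of 3 pieces from their own mean sum to 0, so these values cannot settle whether replicate numbers pair the pieces. The replicate block gave 53 members lower and 5 higher in tumor against wild-type liver, 37 lower and 10 higher in adjacent against wild-type liver and 27 lower and 9 higher in tumor against adjacent liver. The correlation of members with their chromosome, an alternative added after the data were seen, ranged from 0.66 to 0.84 in tumor against adjacent liver, from 0.54 to 0.74 in adjacent against wild-type liver and from 0.44 to 0.55 in tumor against wild-type liver.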

Other observations

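A list for mitochondrial content held genes of import, chaperones, prohibitins, a cristae protein, a protease and antioxidant enzymes. Of its 13 genes tested, 5 were higher (38.5%) and 4 lower (30.8%) in the tumor than in wild-type liver, close to the 33.2% and 30.2% of all genes tested. In adjacent against wild-type liver 6 were higher (46.2%, against 34% of all genes) and 2 lower (15.4%, against 28.9%), and in tumor against adjacent liver 2 were higher (15.4%, against 20.1%) and 9 lower (69.2%, against 25.1%). Tomm22, part of the import pore of the outer membrane, was higher by 0.77 in tumor and 0.53 in adjacent liver. Prdx3, a mitochondrial peroxidase, was higher by 0.54 and 0.88, and the protease gene Lonp1 by 0.60 and 0.61. Timm44, a motor component of inner membrane import, was lower in tumor at -0.74 (adjusted p = 5.21e-06, limma), and Sod2, the manganese superoxide dismutase, was lower at -0.67.

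A list of mitochondrial genes linked to hypoxia gave 6 lower (75%, against 30.2% of all genes) and 1 higher of 8 in tumor, and 5 lower (62.5%, against 28.9%) and 0 higher in adjacent liver, each against wild-type liver. Pdk1, a kinase that shuts off pyruvate dehydrogenase and a known target of hypoxia-inducible factor, stood at log2 levels of 8.91, 8.69 and 8.84 in tumor, 8.54, 8.27 and 8.67 in adjacent liver and 10.24, 10.29 and 9.76 in wild-type liver. Fam162a was the gene that was higher in tumor, by 0.87 against wild-type liver and 0.89 against adjacent liver. Bnip3, Higd1a, Higd2a, Pdk2 and Pdk4 were lower in the tumor than in wild-type liver, at -1.04 to -0.53.

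The remaining marker lists gave, for tumor against wild-type liver, 1 higher and 1 lower of 7 endothelial genes, 2 higher of 5 cholangiocyte genes, 2 higher of 5 T and NK cell genes, and 1 higher of 2 pancreas genes. Among all genes tested 33.2% were higher and 30.2% lower. The 40% higher of the cholangiocyte genes and of the T and NK cell genes is near that share. The 1 erythroid gene tested (Alas2) and the 1 adipocyte gene tested (Cidea) were lower.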
